A study of Canis lupus familiaris with 8 samples.

Results

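CALCA, PENK, GAP43 and RELN are 4 genes whose products are best known from nerves, and their signals were read in the mitral valve leaflet of the dog. The genes were chosen by their log2 signal difference between affected and control leaflets, which was already known, and every probe set whose platform annotation gives 1 of these symbols was taken. That gave 7 of the 23836 probe sets that are not array controls: 1 for CALCA (1598230_at), 1 for PENK (1583315_at), 2 for GAP43 (1585261_at and 1604164_at) and 3 for RELN (1600089_at, 1591714_at and 1590455_at). Since the choice used the difference between affected and control dogs, that difference is described here for the 4 genes and not tested.

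The tissue was the anterior leaflet of the mitral valve, frozen in liquid nitrogen, with 1 Affymetrix array per dog. The 4 affected dogs had degenerative mitral valve disease (DMVD), in which the leaflets thicken and deform, mostly in older dogs of small breeds. By breed, affected dogs 2 and 4 were Miniature poodles, dog 1 was a Lhasa apso and dog 3 a Dachshund. The 4 control dogs were beagle crosses. The sources used here give neither age nor sex, and since no control shared a breed with an affected dog, breed and disease cannot be told apart.

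CALCA is read in alternative ways, so that its RNA encodes calcitonin in the thyroid and the vasodilator calcitonin gene-related peptide (CGRP) in sensory neurons. PENK encodes proenkephalin, which is cut into enkephalins, the peptides that act on delta and mu opioid receptors. GAP43 is a membrane-bound growth cone protein that is phosphorylated by protein kinase C and marks growing or regenerating axons. RELN encodes reelin, a large secreted matrix glycoprotein that signals through VLDLR and LRP8 to the adaptor DAB1 and guides the placing of neurons. Outside the brain, reelin is also made by lymphatic endothelial cells. Heart valves carry sensory and autonomic nerve fibres, but the cell bodies of those neurons, which hold most of their RNA, lie mainly outside the leaflet.

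Signals were already scaled to 1 common level on all arrays, and the median signal was 124 to 191 in affected and 133 to 157 in control dogs. Control 2 stood apart. Its mean log2 signal over 9 genes of valve interstitial cells and matrix was 10.74, below the 13.001 to 13.39 of affected dogs and the 13.08 to 13.54 of the other controls, while its mean over 13 cardiac muscle genes, at 13.86, was the highest of the 8 dogs. Affected 2 came next on the cardiac muscle mean, at 13.38, and affected 3 was lowest, at 10.24. The signal of the cre spike-in, a hybridization control from a bacteriophage, was higher in affected 1 and affected 2, at 31764 and 25827, than in the other 6 dogs, at 11577 to 15294, and the ratio of 3′ to 5′ GAPDH signal was 1.12 to 1.46 in affected and 1.00 to 1.34 in control dogs. The part of these array measures in the values below was not tested. Signals of 34.2 or less were set to that floor, which is 5.10 on the log2 scale, and testing required a signal above the array's own 40th percentile, a level of 81.0 to 129.98, on 4 or more of the 8 arrays. By this rule 14705 probe sets were tested, 6 of the 7 described here among them.

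CALCA was higher in every affected dog than in every control dog. Its signal was 460.1 in affected 1, 237 in affected 2, 274 in affected 3 and 221 in affected 4, against 62.8 in control 1, 14.98 in control 2, 13.1 in control 3 and 89.0 in control 4. All 4 affected values lay above the 40th percentile of their array and all 4 control values below it. Control 4 came nearest, at 89.0 against 97.5, and controls 2 and 3 were under the floor. The lowest affected value was 2.49 times the highest control value, with a mean of 298 ± 110.1 in affected and 45.0 ± 37.3 in control dogs (SD, n = 4 each). On the floored log2 scale the difference was 2.50 ± 0.41 (affected minus control, SE), or 5.64-fold. CALCA passed the rule on low values only through the affected dogs, so a gene of this kind had to differ to be tested at all. The size is bounded on the control side by background: raising the floor to the 40th percentile gave a log2 difference of 1.52, and removing it gave 3.14. Without control 2 it was 2.31, and without affected 1, the brightest dog, 2.27.

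PENK lay the other way and was lower in every affected dog. Its signal was 132 in affected 1, 151 in affected 2, 130.04 in affected 3 and 252 in affected 4, against 706 in control 1, 271 in control 2, 335 in control 3 and 600.2 in control 4. The groups did not overlap, but by a narrow margin: the lowest control value was 1.07 times the highest affected value, and affected 4 and control 2 were the neighbours. Means were 166 ± 57.9 in affected and 478 ± 208 in control dogs (SD, n = 4 each). The log2 difference was -1.47 ± 0.37 (SE), which puts control dogs 2.77-fold above affected dogs. All 8 values lay above the 40th percentile of their array, though affected 1, at 132 against 109, and affected 2, at 151 against 129.98, lay close to it. Without control 2 the difference was -1.71. The highest control was 2.61 times the lowest, and the highest affected dog 1.94 times the lowest.

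GAP43 was higher in every affected dog on both of its probe sets. On the brighter one the signal was 786 in affected 1, 438 in affected 2, 984 in affected 3 and 998 in affected 4, against 389 in control 1, 277 in control 2, 215 in control 3 and 180 in control 4. Affected 2 was the lowest of its group and stood 1.13 times above control 1, the highest control. Means were 801 ± 261 in affected and 265 ± 92.0 in control dogs (SD, n = 4 each), and the log2 difference was 1.58 ± 0.35 (SE). On the dimmer probe set the signal was 333, 233, 239 and 205 in affected 1 to 4, against 169, 172, 127 and 124 in control 1 to 4. The groups again did not overlap, and the log2 difference was smaller, at 0.76 ± 0.27 (SE), or 1.70-fold. The 2 probe sets put the affected dogs in different orders: affected 4 was highest on the brighter and lowest on the dimmer one. Without control 2 the differences were 1.63 and 0.84.

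RELN was higher in affected dogs on its brightest probe set, with 1 control among them. The signal was 2493 in affected 1, 1897 in affected 2, 2583 in affected 3 and 4091 in affected 4, against 1950.2 in control 1, 576 in control 2, 814 in control 3 and 618 in control 4. Control 1 lay above affected 2, so the groups overlapped. The other 3 controls lay below every affected dog. Means were 2766 ± 935 in affected and 990 ± 649 in control dogs (SD, n = 4 each), and the log2 difference was 1.62 ± 0.40 (SE), or 3.07-fold. It was 2.01 without control 1 and 1.42 without control 2. The other probe sets differed much less. On the second the signal was 425, 327, 230 and 258 in affected 1 to 4, against 198, 244, 231 and 235 in control 1 to 4, a log2 difference of 0.42 ± 0.26 (SE) that was 0.25 without affected 1. On the third the signal was 95.3, 185, 95.7 and 50.2 in affected 1 to 4, against 86.2, 65.4, 60.7 and 80.9 in control 1 to 4. Only 3 of its 8 values lay above the 40th percentile of their array, so it was not tested, and its log2 difference of 0.40 ± 0.39 (SE) was 0.088 without affected 2 and 0.71 without affected 4. Which RELN transcripts the probe sets read was not analysed here.

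**Figure D1:**
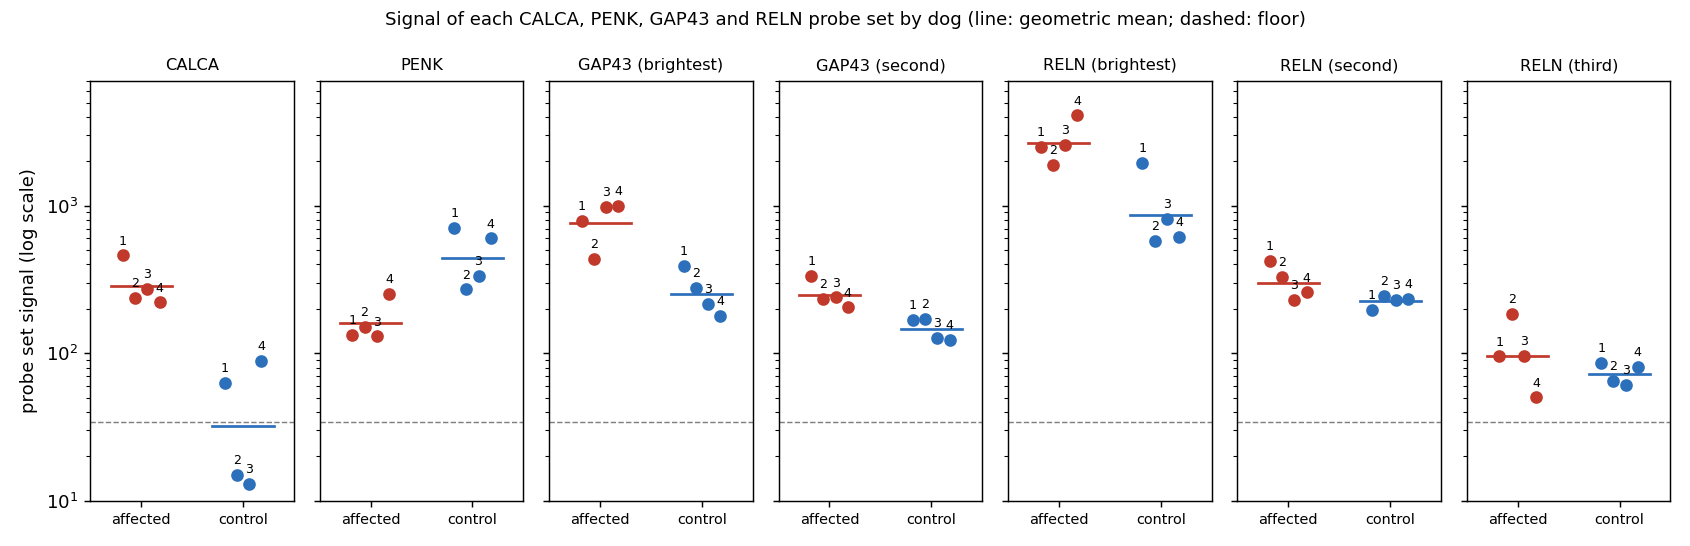
Deposited signal (log axis) of each of the 7 probe sets in the 4 affected (red) and 4 control (blue) dogs, numbered by replicate, with the geometric mean of each group as a line and the floor of 34.2 dashed. Groups do not overlap for CALCA, PENK and both GAP43 probe sets; for the brightest RELN probe set control 1 lies above affected 2.

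Of the 7 probe sets, 4 had groups that did not overlap: 3 were higher in affected dogs, where 2.35% of all tested probe sets were, and 1 was lower, where 2.31% were, which makes 4.66% in either direction. These counts follow from how the genes were chosen. In limma with Benjamini-Hochberg adjustment, 0% of the 14705 tested probe sets passed 0.05. The smallest adjusted p of any probe set was 0.238, and 591 probe sets (4.02%) were higher and 560 (3.81%) lower at an unadjusted p under 0.05. With control 2 and affected 3 left out together, a choice made after seeing the data, 29 probe sets were higher and 99 lower at the adjusted threshold. The median size of a log2 difference over all tested probe sets was 0.29. All 6 tested differences here were larger, which also follows in part from how the genes were chosen. The second RELN probe set, at 0.42, exceeded only 65.2% of the tested probe sets in size.

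**Figure D2:**
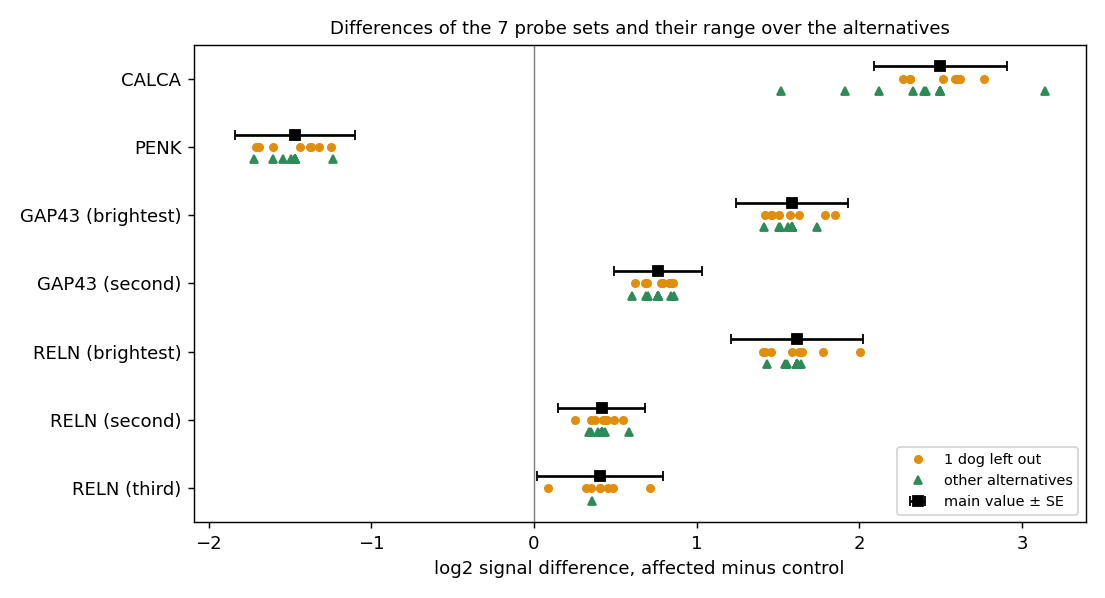
Log2 signal difference, affected minus control, of each probe set with its standard error (black), with 1 dog left out at a time (orange) and under the other alternatives (green). All values of CALCA, GAP43 and RELN lie above 0 and all values of PENK below it, and CALCA has the widest range, from 1.52 to 3.14.

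Among other neuropeptide genes the directions were mixed. Of all 5438 genes tested, each read by its brightest probe set, 49.5% were higher in affected dogs, the share to set beside the list counts below. Of 26 listed precursors 12 were on the array by name and 7 were tested, 5 of them higher and 2 lower in affected dogs, CALCA and PENK included, with a median log2 difference of 0.22 against -0.0056 over all 5438 genes tested. Without control 2 they were 4 higher and 3 lower. Of the other 5, 0 passed the threshold (limma, smallest adjusted p = 0.607), 4 being higher and 1 lower. TAC1, the precursor of substance P, which sensory fibres often release with CGRP, had a signal of 1800 in affected 1, 2017 in affected 2, 1026 in affected 3 and 5968 in affected 4, against 1985, 81.8, 230.0 and 1027 in control 1 to 4. Controls 2 and 3 were far below the rest, while controls 1 and 4 lay within the affected range, control 4 level with affected 3. Its log2 difference was 2.29 ± 0.91 (SE), and 1.48 without control 2. A second, dimmer TAC1 probe set differed by 0.77 ± 0.46 (SE). ADM, which encodes the vasodilator adrenomedullin of the same peptide family as CGRP, differed by -1.19 ± 0.53 (SE), with affected 2, at 2535, near the top of the control range of 1245 to 2805. CRH, the corticotropin-releasing hormone, differed by 0.22 ± 0.34 (SE).

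The receptors of the peptides were read from few genes. RAMP2, which turns the calcitonin receptor-like receptor into an adrenomedullin receptor, differed by 0.22 ± 0.29 (log2, SE; limma adjusted p = 0.849). CRCP, a protein first described as a helper of CGRP receptor signalling, differed by -0.19 ± 0.31 (log2, SE; limma adjusted p = 0.884). These were the 2 of 6 listed receptor genes named on the array: the ligand-binding receptor CALCRL and its CGRP partner RAMP1 are not named there. Of the opioid receptor genes only OPRL1, the nociceptin receptor, which enkephalins do not bind well, was named, at 0.27 ± 0.35 (log2, SE; limma adjusted p = 0.846). Of 8 tested genes of prohormone processing and peptide breakdown, 4 were higher and 4 lower and 0 passed (limma, smallest adjusted p = 0.690), with a median of 0.0046. Without control 2, 2 were higher and 6 lower. PAM, the enzyme that amidates CGRP, differed by -0.24 ± 0.22 on its brightest probe set, which entered this count, and by -0.87 ± 0.29 and -0.68 ± 0.45 (log2, SE) on its other probe sets. On the probe set with -0.87 every affected dog was below every control (limma adjusted p = 0.545). ANPEP, an aminopeptidase that degrades enkephalins, differed by 0.53 ± 0.30, the prohormone convertase chaperone SCG5 by -0.68 ± 0.46 and the peptidase DPP3, which also cleaves enkephalins, by 0.38 ± 0.33 (log2, SE).

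Other axon genes were mixed in direction. Of 38 listed genes of axon growth and the neuronal cytoskeleton, 12 were tested, and of the 11 besides GAP43, 6 were higher and 5 lower with 0 past the threshold (limma, smallest adjusted p = 0.410) and a median of 0.16. Without control 2, the 12 with GAP43 were 5 higher and 7 lower. NCAM1, a neural cell adhesion molecule also made by muscle, was lower in all 4 affected dogs on its brighter probe set, with 230.1, 338, 241 and 234 in affected 1 to 4, against 418, 769, 508 and 447 in control 1 to 4. Its log2 difference was -1.01 ± 0.27 (SE), and -0.87 ± 0.51 (SE) on the other probe set, where the groups overlapped. The kinase PRKCB, of the family that phosphorylates GAP43, differed by 0.81 ± 0.42 and the microtubule regulator STMN1 by -0.48 ± 0.31 (log2, SE). The neurofilaments NEFL, NEFM and NEFH, the axonal stathmin STMN2 and the neuronal RNA-binding proteins ELAVL2, ELAVL3 and ELAVL4, 7 genes with 10 probe sets, were near background. They were picked from the list after their values were seen. None was tested, 8 of the probe sets were above the 40th percentile on no array, and no probe set was above it on more than 3 arrays. Other genes of the list that neurons express, MAP1B, MAP2, MAPT, UCHL1, RTN1 and SNAP25, were above it on all 8 arrays on their brightest probe sets.

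The partners of reelin were mixed in direction. Of 8 tested genes of reelin signalling besides RELN, 5 were higher and 3 lower, with 0 past the threshold (limma, smallest adjusted p = 0.627) and a median of 0.17. VLDLR, a reelin receptor that also takes up triglyceride-rich lipoproteins, was lower, at -1.09 ± 0.47 (log2, SE), with 378, 338, 796 and 151 in affected 1 to 4, against 793, 1261, 551 and 574 in control 1 to 4. Affected 3 lay within the control range, and without affected 4 the difference was -0.68. FYN, the kinase that phosphorylates DAB1, differed by 0.55 ± 0.25 and GSK3B, a kinase downstream of reelin, by 0.56 ± 0.40 (log2, SE). The GSK3B difference was 0.22 without affected 1, whose signal was 659. LRP8 and DAB1 are not named on the array.

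The 6 tested genes of neurotrophins and their receptors all had a positive difference, with a median of 0.49 and 0 past the threshold (limma, smallest adjusted p = 0.561). Without control 2, 3 were higher and 3 lower. NTRK3, the receptor of neurotrophin-3, had 2434, 2711, 713 and 419 in affected 1 to 4, against 433, 186, 538 and 418 in control 1 to 4. Affected 1 and 2 were far above every other dog, and affected 4 lay within the control range. Its 4 probe sets differed by 1.02 to 2.26, the brightest by 1.69 ± 0.60 (log2, SE). SORT1, a sorting receptor for neurotrophin precursors, differed by 0.69 ± 0.28 and NTRK2, the receptor of BDNF, by 0.90 ± 0.82 (log2, SE). The NTRK2 difference rested on control 2, at 371 against 4940 or more in the other controls, and was -0.12 without that dog.

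Immediate early genes, which respond within minutes to stimulation and to tissue handling, were 7 higher and 2 lower of 9 tested, with a median of 0.34 and 0 past the threshold (limma, smallest adjusted p = 0.672). Without control 2, 6 were higher and 3 lower, with a median of 0.107. The list means overlapped, at 9.81 to 11.39 in affected and 9.65 to 11.57 in control dogs on the log2 scale. CREM, a cAMP-responsive transcription factor, differed by 0.90 ± 0.48, JUNB by 1.09 ± 0.64 and IER2 by 0.72 ± 0.47 (log2, SE). JUNB was 3483 and 2560.1 in affected 1 and 2 and 10136 and 9381 in affected 3 and 4, against 9258 in control 1 and 1472 to 1748 in the other controls. The JUNB difference was 1.71 without control 1 and 0.53 without control 2 and affected 3. In the same control 1, RELN, GAP43 and PENK were highest of the controls on their brightest probe sets, while CALCA was highest in control 4. The other probe sets differed in this. Control 1 was the lowest control on the second RELN probe set, at 198, and the highest on the third, at 86.2. On the dimmer GAP43 probe set it lay below control 2, at 169 against 172. A link of these signals with JUNB was not tested.

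**Figure D3:**
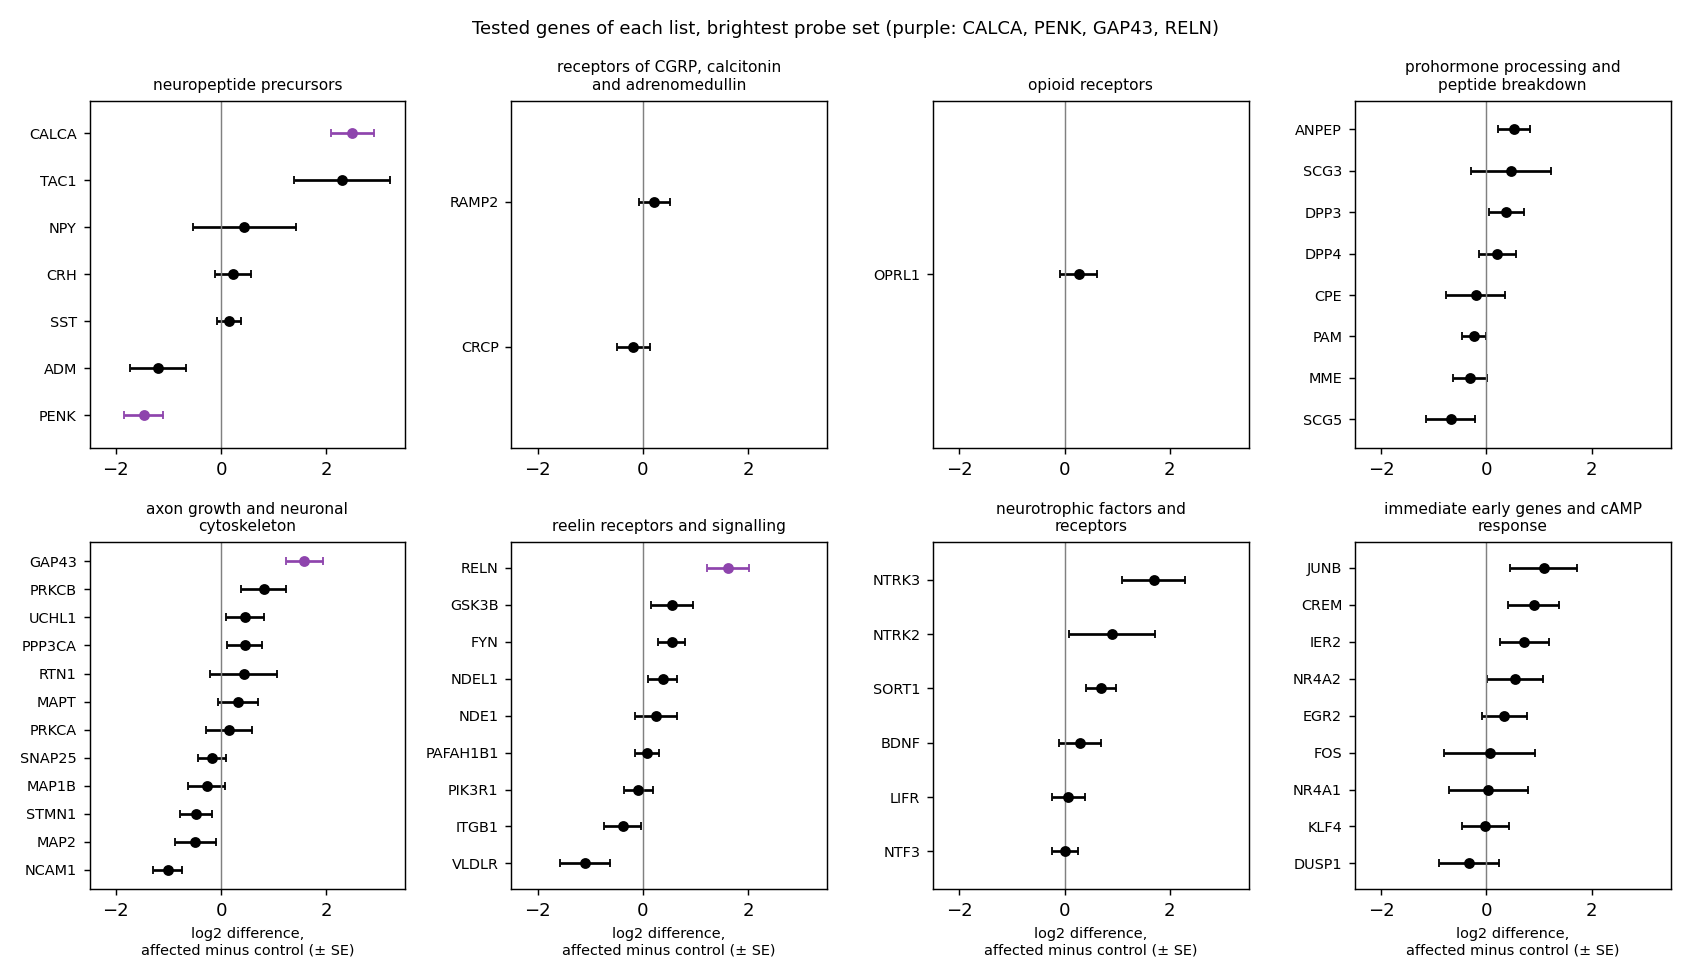
Log2 signal difference, affected minus control, with its standard error for the brightest tested probe set of each listed gene, in 8 panels of related genes; the 4 described genes are purple. CALCA and TAC1 lie furthest right among the peptide precursors, PENK and ADM furthest left, and GAP43 and RELN lie right of the other genes of their panels.

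Of the markers of cells a leaflet can hold, 0 genes of any list passed the threshold (limma, smallest adjusted p = 0.238), and the lists are given as counts. In whole leaflets, fewer cells of a type and less RNA per cell cannot be told apart. Of the lists with 3 or more tested genes, macrophage and monocyte markers were higher for 14 of 14, with list means of 9.60 to 10.82 in affected and 6.34 to 9.42 in control dogs on the log2 scale, control 2 being the lowest, brightest in CSF1R, CD14 and C1QA. Groups did not overlap for 6 of the 14. Of all 5438 genes tested, 147 were higher and 129 lower with no overlap. Of the 6 macrophage genes, 2, FCER1G and MARCO, were above the 40th percentile on no control array, so that the rule on low values fixed their direction. Endothelial markers were higher for 6 of 6, with 2 not overlapping and means of 10.80 to 11.22 in affected and 9.91 to 10.39 in control dogs, brightest in PECAM1, ENG and TIE1. Both counts were the same without control 2. The endothelial median log2 difference was 1.00 on the brightest probe sets and 0.61 with each gene read as the mean over its probe sets. The dimmer TEK probe set differed by -0.029 ± 0.28 (log2, SE). In the mean of either list every affected dog lay above every control, as for CALCA and GAP43. The part of either list in those differences was not tested.

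The nerve lists had few tested genes, and their means overlapped between the groups. Neuronal markers, with 4 of 25 tested, were higher for 1 and lower for 3, with means of 7.73 to 8.001 in affected and 7.87 to 8.34 in control dogs; the brightest were SLC18A2, SNAP25 and SCN10A. Schwann cell markers, with 6 of 20 tested, were higher for 2 and lower for 4, with means of 7.64 to 8.10 in affected and 7.79 to 8.76 in control dogs; the brightest were PMP22, MAL and S100B. MAL, a myelin protein also made by T cells and epithelia, was lower in all 4 affected dogs, at -0.83 ± 0.33, and S100B differed by -1.54 ± 0.65 (log2, SE), with control 2 among the affected dogs. Without control 2 the counts were 2 higher and 2 lower for neurons and 3 and 3 for Schwann cells.

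Lymphatic endothelium, a site of reelin synthesis, could be read from few genes. PROX1, LYVE1 and FLT4 are not named on the array. PDPN, which is also made by fibroblasts, was higher in all 4 affected dogs, at 2891, 1405, 2077 and 2389 in affected 1 to 4, against 1234, 634, 405 and 690 in control 1 to 4, a log2 difference of 1.63 ± 0.36 (SE; limma adjusted p = 0.328). CCL21, a chemokine of lymphatic vessels, differed by -0.63 ± 0.46 on its brightest probe set, by -1.81 ± 0.65 on the next (limma adjusted p = 0.572) and by -2.63 ± 0.86 on the dimmest, which was not tested (log2, SE). Control 2 lay below the affected range on the first, within it on the second and at the floor with all 4 affected dogs on the dimmest. The leaflet itself was read through VIM, DCN and COL1A2, the brightest of 9 interstitial and matrix genes, 8 of which were higher. Without control 2 only 4 were higher, and COL1A1, COL1A2, COL3A1, DCN and BGN were lower. Cardiac muscle genes, brightest in MYL4, ACTC1 and TNNC1, were lower for 12 of 13, with means of 10.24 to 13.38 in affected and 11.42 to 13.86 in control dogs. Without control 2, 8 were lower and 5 higher, and the median difference was -0.0661 in place of -0.49. Of melanocyte genes 3 were tested, brightest in MITF, EDNRB and TYRP1, with means of 7.67 to 8.47 in affected and 8.05 to 8.76 in control dogs. TYR, the pigment enzyme, was above the 40th percentile on no array.

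**Figure D4:**
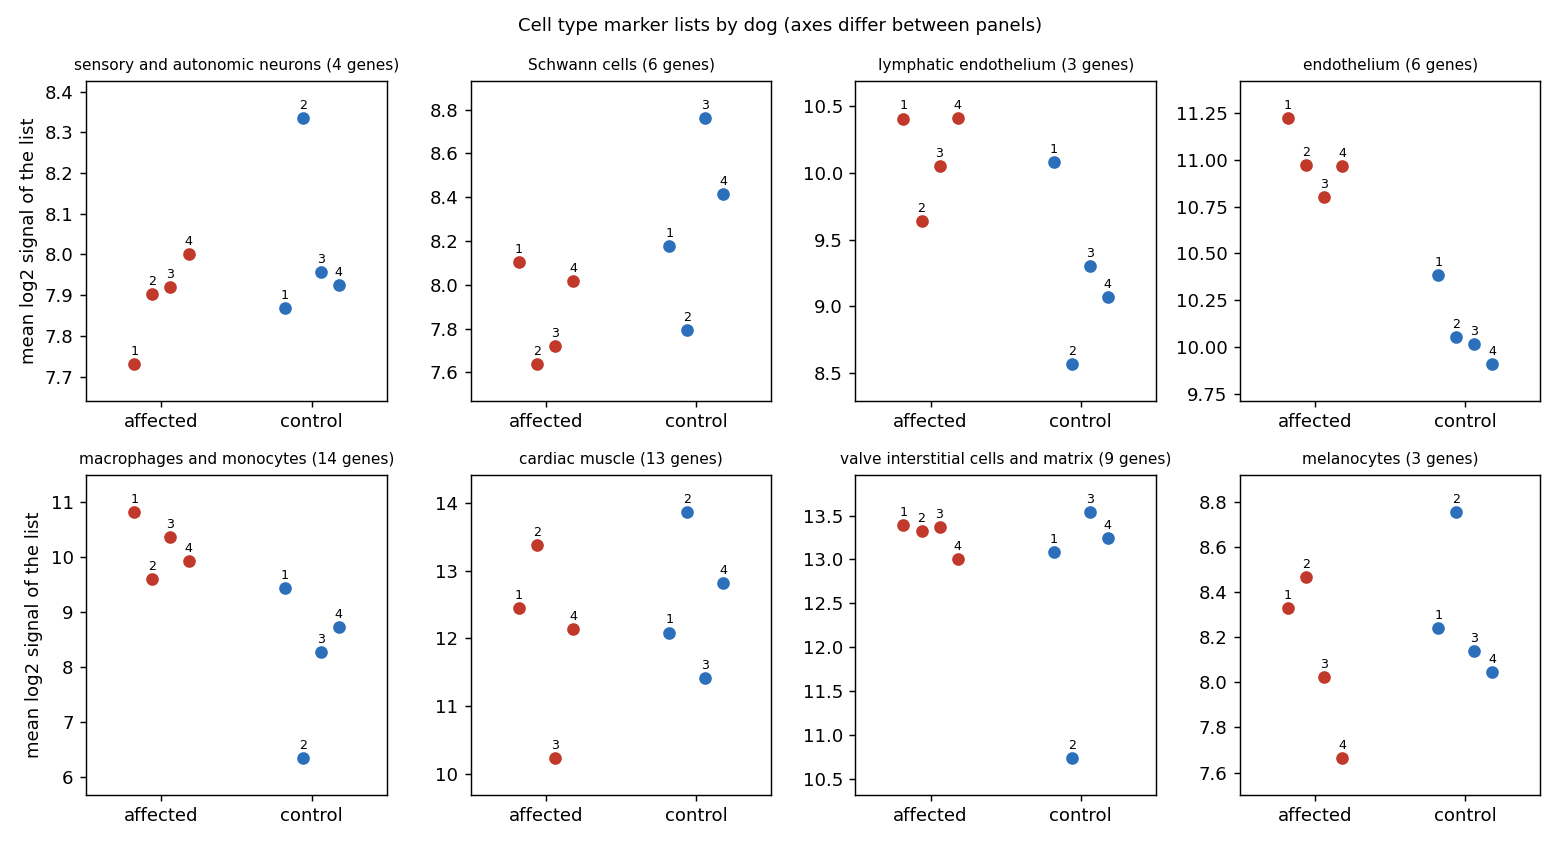
Mean log2 signal of the tested genes of each cell type marker list in the 4 affected (red) and 4 control (blue) dogs, numbered by replicate; the axes differ between panels. Macrophage and endothelial means do not overlap between the groups, neuronal and Schwann cell means do, and control 2 is lowest for interstitial genes and highest for cardiac muscle.

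The profiles over the 8 dogs were set against those of the other 5437 genes tested by the root mean square difference of log2 signals, each gene centred on its own mean; 0 would be an identical profile. The affected and control dogs both enter this measure, so it holds the group difference that chose the genes, and it is given as a description. Nearest to CALCA were RBM47, an RNA-binding protein, at 0.55, the monocyte receptor CD14 at 0.56 and the lectin CD209 at 0.57, where the median gene was at 1.41. Nearest to PENK were SMAD5, a mediator of BMP signals, at 0.42, the transcription factor subunit NFYB at 0.501 and PLCL1 at 0.502, with the median gene at 0.98. Nearest to GAP43 were ITIH3, a hyaluronan-binding plasma protein, at 0.31, EMR4, an adhesion receptor of myeloid cells, at 0.35 and PDPN at 0.36, with the median gene at 1.02. Nearest to RELN were ITGB2, the leukocyte integrin beta chain, at 0.36, GAP43 at 0.38 and the pyrimidine synthesis enzyme UMPS at 0.42, with the median gene at 1.08. SMAD5, NFYB and PLCL1, the neighbours of PENK, were lower in affected dogs and the other named neighbours higher. Those directions follow in large part from the measure.

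**Figure D5:**
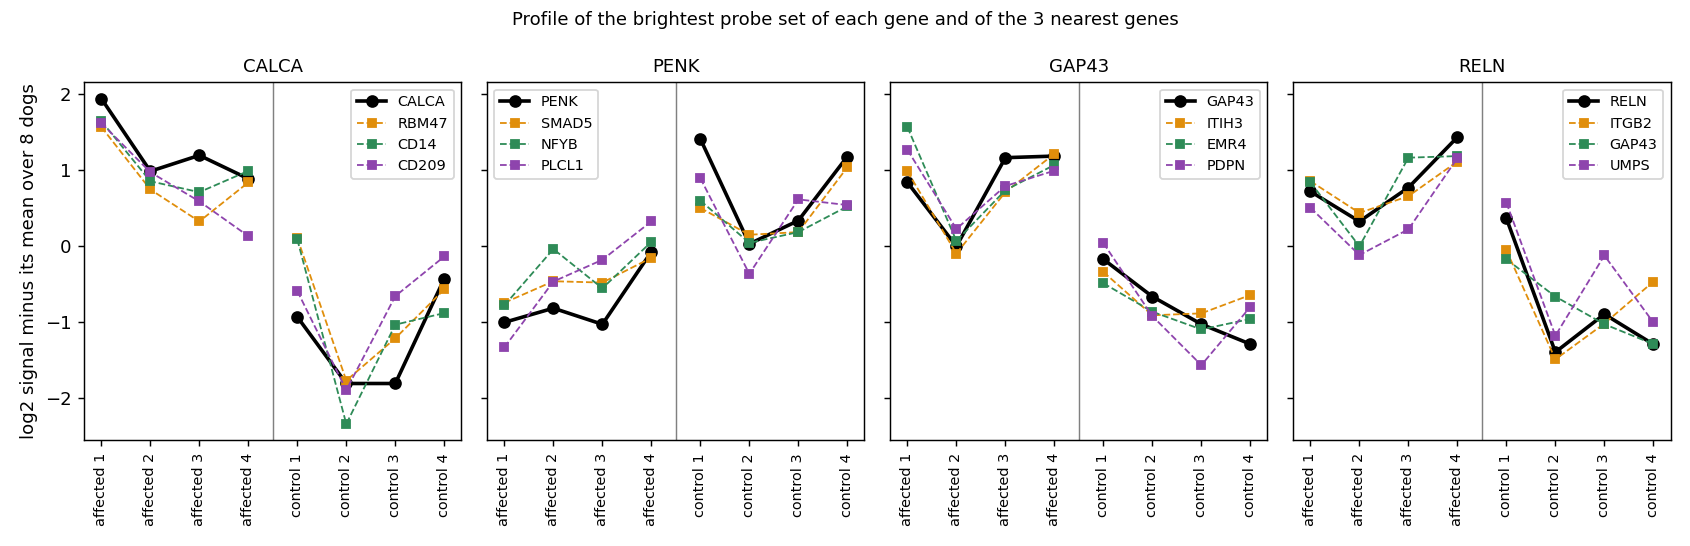
Log2 signal minus its mean over the 8 dogs for the brightest probe set of CALCA, PENK, GAP43 and RELN (black) and of the 3 genes with the nearest profile (coloured), affected dogs left and control dogs right in each panel; lines only join the points of 1 gene. Control 2 is the lowest dog for RELN and for RBM47, CD14, CD209, ITIH3, ITGB2 and UMPS. Affected 2 is the lowest affected dog for GAP43, RELN and each of their plotted neighbours.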

How the data were processed

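Each deposited table cell is a probe set's MAS5 intensity on a linear scale, per the submitters' processing notes. The MAS5 version, detection calls and any filter are not stated in those sources. Of 23913 rows 77 are array controls. In the platform annotation 10549 rows carry a single symbol, 138 carry several and 13226 carry none, and only the first kind was named. All 4 symbols described here occur in the RefSeq gene list for UU_Cfam_GSD_1.0, with the annotation's gene identifier for 3; PENK has another there. No sequences or coordinates were used. No probe set is named for CALCB, the close relative of CALCA, and whether its RNA adds to the CALCA signal was not tested.

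Arrays were scaled to a common trimmed mean (2% left out at each end), floored at the 20th percentile of all signals and log2-transformed; the authors' deposited values were not on a log2 scale. Groups were compared with limma (version 3.58.1, R 4.3.3; linear model, trended eBayes, two-sided p, Benjamini-Hochberg over 14705 probe sets, threshold 0.05), tested on simulated data first. The standard error of the untested RELN probe set comes from the fit with no filter. Signals in the text are as deposited, and fold changes come from floored log2 values. The number of arrays limits the precision. Each p-value sets the group difference against the spread between these dogs, as moderated by eBayes over all tested probe sets. It cannot tell disease from breed.

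A gene was read by its brightest probe set. Genes named beside the 4 are, per list, the 3 others with the smallest unadjusted p, all receptor genes on the array, the 3 brightest of each marker list and the 3 with the nearest profile. Values for neurofilament, STMN2, ELAVL, TYR, CCK, ADCYAP1, PAM, FCER1G and MARCO genes, and the neuronal genes set beside them, were added once their values had been looked at. The 4 genes and the lists were chosen with earlier results of these data known. Replicate numbers do not pair the dogs: for numbers 1 to 4, the deviations from the group means correlated between same-numbered dogs at -0.12, 0.41, 0.022 and -0.013. Alternatives changed the normalization, floor, filter, spread estimate and probe set, added the replicate number as a block, and left out each dog in turn. Leaving out control 2 and affected 3 together was added after seeing the data.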

Additional observations from a re-analysis of the deposited data

Results flagged for a closer look

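Each group of 4 dogs was checked for a dog far from the other 3, by the share of the group's range that lies between it and its nearest neighbour. Of 106 groups checked, 6 had a share above Dixon's 95% critical value, and chance gives about 1 in 20. None of the 14 groups of the 7 CALCA, PENK, GAP43 and RELN probe sets was among them.

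In affected dogs, affected 2 was far above the others for NCAM1, with a share of 0.876 and a log2 signal of 8.40 against 7.85 to 7.91. In control dogs, control 1 was far above the others for JUNB, with a share of 0.907 and a log2 signal of 13.18 against 10.52 to 10.77. The other 4 were all control 2. It was lowest for NTRK2 (share 0.851, log2 signal 8.53 against 12.27 to 12.92) and highest for SCG5 (share 0.844, log2 signal 10.07 against 8.64 to 8.86). It was also lowest for the mean of prohormone processing and peptide breakdown genes (share 0.861, at 8.80 against 9.51 to 9.63) and for the mean of interstitial and matrix genes (share 0.837, at 10.74 against 13.08 to 13.54).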

How the results depend on the processing

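The sign of every probe set of the 4 genes held in each of its alternatives, 20 for CALCA, 21 for each of the other 5 tested probe sets and 9 for the untested RELN probe set. Much of this was fixed in advance, since the genes were chosen by this difference. Where the groups did not overlap, leaving out a dog could not turn the sign. The filter, the eBayes settings and the replicate block leave the difference itself unchanged. The CALCA difference was 3.14 with no floor and 1.52 once the floor was raised to the 40th percentile, and the stricter filter removed CALCA. Other probe sets gave 0.76 for GAP43, and 0.42 and 0.40 for RELN. Leaving out 1 dog at a time, CALCA ranged from 2.27 to 2.77, PENK from -1.71 to -1.24, GAP43 from 1.42 to 1.85 and RELN from 1.41 to 2.01 on their brightest probe sets. Probe sets past the threshold numbered 0 higher and 0 lower; with the replicate block 4 were higher and 0 lower, without 1 dog at a time 0 to 1 higher and 0 lower (the 1 without control 1), and without control 2 and affected 3 together 29 higher and 99 lower. The numbers share no animal, and affected dogs 1, 3 and 4 correlated best with a control of another number. The sign turned for CRH without affected 4 (-0.025), for NTRK2 without control 2 (-0.12; up to 1.35 without another dog), for RAMP2 without affected 3 (-0.032; up to 0.35), and, without control 2 and affected 3, for NTRK2 (-0.18), RAMP2 (-0.14) and SCG5 (0.020). The causes were not tested. The median of the neuropeptide list was -1.19 with the stricter filter, which drops CALCA and leaves few genes, that of the axon list, GAP43 included, -0.0639 without control 2 and that of the reelin list 0.49 without control 1. Signals near background limit CALCA in control dogs and the third RELN probe set.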

Other observations

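CCK, the precursor of cholecystokinin, a peptide of gut endocrine cells and neurons, failed the rule on low values, since only 3 of 8 arrays lay above their 40th percentile. Its signal was 52.1, 24.6, 20.04 and 17.0 in affected 1 to 4, against 259, 82.8, 219 and 365 in control 1 to 4, so that the groups did not overlap. The floored log2 difference was -2.42 ± 0.46 (SE), with 3 of 4 affected dogs at the floor, and no test is attached to it, since it was noticed after its values were seen. ADCYAP1, the precursor of the peptide PACAP, also lay at or near background in affected dogs, at 19.3, 8.23, 46.4 and 13.5 in affected 1 to 4, against 133, 19.7, 172 and 409 in control 1 to 4, with control 2 among the affected dogs.

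Control 1 and control 4 had the higher signals of their group for CALCA, PENK, CCK, NPY and the brighter TAC1 probe set, whichever way the gene differed between the groups. Other peptide genes did not follow. Among controls, ADM was highest in control 2, at 2805, and SST in control 3, at 779. CRH was lowest in control 4, at 91.2, and ADCYAP1 was higher in controls 3 and 4 than in control 1. For CALCA all 4 control values lay below the 40th percentile of their array. Among affected dogs CALCA was highest in affected 1, and PENK and TAC1 in affected 4.

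The profile of the brightest RELN probe set was nearer to that of the brightest GAP43 probe set, at a root mean square difference of 0.38, than to the other RELN probe sets, at 0.94 and 1.06. The GAP43 probe sets differed from each other by 0.60, and the dimmer one lay nearer to the second RELN probe set, at 0.30. The measure holds the group difference by which the genes were chosen. That log2 difference was 1.62 and 1.58 on the brightest RELN and GAP43 probe sets. It was 0.76 on the dimmer GAP43 probe set, and 0.42 and 0.40 on the other RELN probe sets, which lay 0.49 from each other. The cause of these distances was not tested.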
